A study of Mus musculus with 2 samples.

Results

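The genes that mark the resident macrophages of the liver, the Kupffer cells, were followed in RNA-seq libraries from livers with and without hepatocyte deletion of Mettl3, which encodes the catalytic subunit of the m6A methyltransferase complex. The 10 genes are Marco, Vsig4, Clec4f, Timd4, Cd5l, Mpeg1, Cd68, C1qa, C1qb and C1qc, and they were taken by symbol from a table of 52636 named genes. All 10 were found, and all 10 passed the minimum of 20 counts over both libraries that 14433 genes passed. Both groups were C57BL/6 mice of 8 weeks on normal chow, and both carried Mettl3 flox/flox alleles. The HKO group also carried Alb-Cre+/-, in which the albumin promoter drives Cre recombinase and so directs the deletion to hepatocytes. The flox group carried no Cre, so effects of the deletion and of Cre itself cannot be told apart. RNA of 4 livers was pooled per group before a single library was made from each pool.

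With 1 library per group there is no replicate check and no test between genotypes. Ratios are given as HKO over flox, by the labels of the libraries. Library sizes were first scaled by TMM, a method that relies on the bulk of the genes. The interval after each ratio is an exact 95% binomial interval that covers counting error only, and PCR copies count as reads. A gene with at least 20 counts over both libraries is called past 2-fold when its ratio reached 2 in either direction and the interval excluded equality. Named genes received 21457504 counts in the flox library and 18438807 in the HKO library. Mettl3 itself had 156 and 220 counts, a ratio of 1.36 (1.11 to 1.69), which goes against the HKO label. Reads from undeleted exons and from other liver cells count towards that gene, so it checks the label little, and flox and HKO stand here for what the labels say. The log2 ratios of all tested genes had a median of 0.01, and their quartiles were −0.31 and 0.37. If libraries are scaled by their totals instead, 0.27 is added to each log2 ratio. On the TMM scale 828 tested genes were past 2-fold higher in HKO and 672 lower, and on the scale of totals 1504 and 409 were.

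Kupffer cells sit in the sinusoids of the liver, where they take up bacteria, ageing red cells and dying cells from the blood. They are seeded before birth and largely renew themselves, while macrophages that arise from blood monocytes can join them or fill their place when they are lost. Clec4f, Timd4, Vsig4 and Marco encode surface receptors that bind glycans, phosphatidylserine, complement fragments and bacterial or modified lipid ligands. Cd5l encodes a secreted scavenger protein that travels with IgM. C1qa, C1qb and C1qc encode the chains of C1q, which starts the classical complement pathway and which in most tissues is made by macrophages rather than by hepatocytes. Cd68 and Mpeg1 encode a lysosomal glycoprotein and a pore-forming protein found in macrophages of every origin, and both are therefore not particular to Kupffer cells.

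The RefSeq promoter windows of GRCm38.p6, from 250 bases before to 50 bases after the start site, are shown for 5 of the genes. Marco, Vsig4 and Cd68 were all past 2-fold, Clec4f had the smallest ratio of the set, and C1qb stands for the C1q genes. Capitals mark GAGGAA on either strand, the core letters of sites for PU.1, the transcription factor that all macrophages need. All windows are written 5′ to 3′ on the strand of the gene.
Marco (chr1:120504975-120505274, minus strand): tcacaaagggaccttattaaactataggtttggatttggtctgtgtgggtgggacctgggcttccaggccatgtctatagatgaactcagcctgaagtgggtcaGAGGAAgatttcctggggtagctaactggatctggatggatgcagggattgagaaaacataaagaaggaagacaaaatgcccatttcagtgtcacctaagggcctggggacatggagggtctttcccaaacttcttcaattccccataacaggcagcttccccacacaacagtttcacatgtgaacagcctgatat
Vsig4 (chrX:96293389-96293688, minus strand): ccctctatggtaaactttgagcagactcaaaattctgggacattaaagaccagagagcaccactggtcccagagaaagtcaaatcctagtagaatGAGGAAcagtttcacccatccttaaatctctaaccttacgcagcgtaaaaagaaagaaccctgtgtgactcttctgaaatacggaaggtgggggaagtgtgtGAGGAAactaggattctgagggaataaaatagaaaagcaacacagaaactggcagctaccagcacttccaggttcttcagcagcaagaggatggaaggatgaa
Cd68 (chr11:69666121-69666420, minus strand): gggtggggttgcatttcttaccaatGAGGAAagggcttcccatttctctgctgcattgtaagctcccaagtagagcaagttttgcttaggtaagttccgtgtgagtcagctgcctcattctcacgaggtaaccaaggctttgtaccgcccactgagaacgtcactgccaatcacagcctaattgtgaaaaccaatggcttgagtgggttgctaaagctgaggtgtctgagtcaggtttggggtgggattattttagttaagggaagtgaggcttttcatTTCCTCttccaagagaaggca
Clec4f (chr6:83656067-83656366, minus strand): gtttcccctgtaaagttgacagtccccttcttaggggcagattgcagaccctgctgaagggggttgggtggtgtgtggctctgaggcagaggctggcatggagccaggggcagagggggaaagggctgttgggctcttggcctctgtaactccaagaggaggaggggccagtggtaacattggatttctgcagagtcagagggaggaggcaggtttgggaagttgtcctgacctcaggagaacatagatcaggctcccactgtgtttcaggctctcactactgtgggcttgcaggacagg
C1qb (chr4:136886151-136886450, minus strand): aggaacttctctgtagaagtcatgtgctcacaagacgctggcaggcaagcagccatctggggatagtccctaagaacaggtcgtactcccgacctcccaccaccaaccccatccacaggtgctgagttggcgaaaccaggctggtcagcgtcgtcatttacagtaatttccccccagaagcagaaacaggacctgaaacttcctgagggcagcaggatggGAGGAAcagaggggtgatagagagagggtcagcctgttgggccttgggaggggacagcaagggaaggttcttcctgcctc

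Windows were available for 9 of the 10 genes, and C1qa had no match in the table. GAGGAA was found in 6 of the 9, namely C1qb, C1qc, Cd5l, Cd68, Marco and Vsig4, against 28.3% of 32851 windows of the same length. In Vsig4 it began 155 and 53 bases before the start site, and in Marco 146 bases before it. The letters TGCTGA, part of the site of MAF factors, were found in 5 of the 9 (C1qb, Cd5l, Clec4f, Timd4 and Vsig4) against 19.5% of all windows. TGGGAA, the core of the site for the Notch effector RBPJ, was found in Cd68, Clec4f and Marco against 25.6% of all windows. The AP-1 letters TGACTCA were found in Cd68 alone, against 5.20% of windows, and stood there 149 and 24 bases before the start site. Both strands were searched for each set of letters. Of the 4 genes past 2-fold, Mpeg1 held none of the 4 sets of letters. These matches describe the windows only.

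All 10 markers had more counts in the HKO library than in the flox library, although that library was the shallower of the pair, and all 10 intervals lay above equality. Marco, Cd68, Mpeg1 and Vsig4 were past 2-fold higher, which is 4 of 10 against 5.74% of all tested genes past 2-fold higher, and no marker was past 2-fold lower, against 4.66%. The median log2 ratio of the 10 markers was 0.77. Their summed counts were 10145 and 16202, a ratio of 1.54 (1.51 to 1.58). As a share of all named counts the markers took 0.0473% (exact interval 0.0464 to 0.0482) in flox and 0.0879% (0.0865 to 0.0892) in HKO. These shares rest on library totals, on which the ratio of the sums was 1.86 in place of 1.54 with TMM. In pooled whole liver, more Kupffer cells and more RNA of these genes per cell cannot be told apart.

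**Figure D1:**
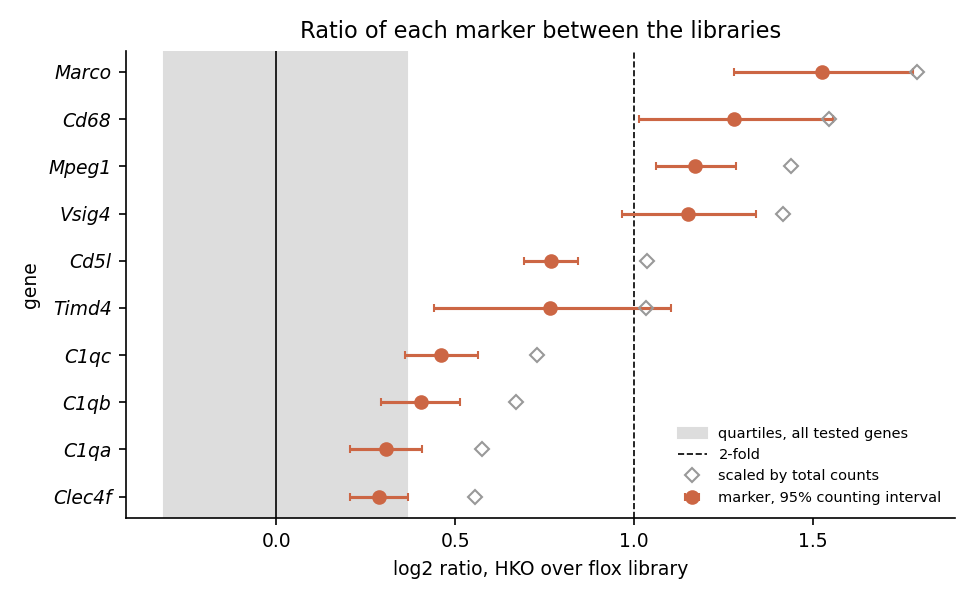
Ratio of each marker between the libraries. The x axis is the log2 ratio of the HKO to the flox library after TMM scaling, circles with bars are the 10 genes with 95% counting intervals, open diamonds the same genes scaled by total counts, and the grey band the quartiles of all tested genes (−0.31 to 0.37). Marco lies farthest to the right at 1.52 and Clec4f farthest to the left at 0.29, and only 4 circles pass the dashed line at 2-fold.

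The surface receptors and Cd5l covered the whole range of the set. Marco (chr1:120474538-120505024, minus strand of GRCm38, 17 exon blocks) encodes a class A scavenger receptor that binds bacteria and modified lipoproteins. It had 178 counts in flox and 530 in HKO. That is 8.30 and 28.7 CPM (counts scaled to a common library total, without TMM). On the TMM scale the ratio of Marco was 2.87 (2.43 to 3.43), the largest of the 10. All CPM values here use library totals, so 2 CPM values differ by more than the TMM ratio beside them. Vsig4 (chrX:96247203-96293438, minus strand, 7 exon blocks) encodes the complement receptor through which Kupffer cells catch opsonised bacteria from flowing blood. It had 341 and 783 counts, or 15.9 and 42.5 CPM. Its ratio was 2.22 (1.95 to 2.53). Both receptors were past 2-fold, and of all tested genes 2.14% reached the ratio of Marco and 4.51% that of Vsig4.

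Timd4 and Cd5l were in the middle of the range, at different depths. Timd4 (chr11:46810800-46844332, plus strand), a phosphatidylserine receptor for apoptotic cells that marks long-resident Kupffer cells, was the scarcest marker, with 121 and 213 counts. Its ratio was 1.70 (1.36 to 2.15), an interval that reaches past 2-fold and is the widest of the 10 on the log2 scale. Cd5l (chr3:87357881-87371073, plus strand), also known as AIM, an inhibitor of apoptosis in macrophages, had 2251 and 3963 counts, or 105 and 215 CPM. Its ratio was also 1.70 but was measured more tightly (1.62 to 1.79), so that a 2-fold difference lay outside its interval on the TMM scale. With total counts both genes pass 2-fold.

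Clec4f (chr6:83644542-83656187, minus strand), a C-type lectin that in mouse is close to exclusive to Kupffer cells, had the smallest ratio of the set. It had 2260 counts in flox, much the same as Cd5l, but 2851 in HKO, where Cd5l had 3963. The ratio was 1.22 (1.15 to 1.29), and 29.5% of tested genes had a ratio at least as high. Clec4f made up 22.3% of the counts of the 10 markers in flox and 17.6% in HKO, whereas the share of Marco went from 1.75% to 3.27%.

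Cd68 and Mpeg1, the markers that all macrophages share, were both past 2-fold. Cd68 (chr11:69664213-69666153, minus strand), carried in the membrane of lysosomes, had 160 and 402 counts and a ratio of 2.43 (2.02 to 2.94). Mpeg1 (chr19:12460779-12465283, plus strand), which encodes a pore-forming protein of the phagosome, had 938 and 2184 counts and a ratio of 2.25 (2.09 to 2.43). Their summed counts were 2.28-fold higher (2.12 to 2.45) in HKO, against 1.57-fold (1.51 to 1.62) for the 5 receptor and Cd5l genes together.

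The C1q genes moved little and close together. C1qa had 1422 and 1819 counts, a ratio of 1.24 (1.15 to 1.33). C1qb had 1152 and 1575, a ratio of 1.32 (1.22 to 1.43), and C1qc 1322 and 1882, a ratio of 1.38 (1.28 to 1.48). Summed, they were 1.31-fold higher (1.26 to 1.37) in the HKO library. The 3 genes are neighbours on the minus strand of chromosome 4 and together span 18675 bases from position 136880129 to 136898803 of GRCm38, in the order C1qb, C1qc, C1qa, with gaps of 3616 and 2851 bases. The other 7 markers are spread over chromosomes 1, 3, 6, 11, 19 and X, with Timd4 and Cd68 both on chromosome 11. None of the exonic bases of the 10 genes overlaps an exon of another annotated gene, and none of their 100-base words occurs in transcripts of another gene. Reads of one C1q chain therefore could not be taken for another over such a length.

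Compared per length, the order of the markers was nearly the same in both libraries. Levels here are RPKM, counts scaled by exon length and by library size, on the TMM scale. In flox, C1qa was highest at 69.9 (66.3 to 73.6), followed by Cd5l at 56.5, C1qb at 54.1, Clec4f at 46.8 and C1qc at 35.0. A step of 2.98-fold (2.64 to 3.37) separated C1qc from Vsig4 at 11.7, and below came Mpeg1 at 11.1, Cd68 at 6.51, Marco at 4.73 and Timd4 at 2.85. Of the neighbours in that order, Cd5l and C1qb did not differ beyond counting error, nor did Vsig4 and Mpeg1. In HKO, Cd5l came first at 96.2 (93.3 to 99.3), ahead of C1qa at 86.5, C1qb at 71.6, Clec4f at 57.0 and C1qc at 48.2. Vsig4 at 26.1, Mpeg1 at 24.9, Cd68 at 15.8, Marco at 13.6 and Timd4 at 4.85 kept their order. Vsig4 and Mpeg1 were again not distinct, and the step from C1qc to Vsig4 had narrowed to 1.85-fold (1.70 to 2.01). Thus the 4 genes past 2-fold held ranks 6 to 9 of 10 in both libraries, while Timd4, which held rank 10, was not among them.

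**Figure D2:**
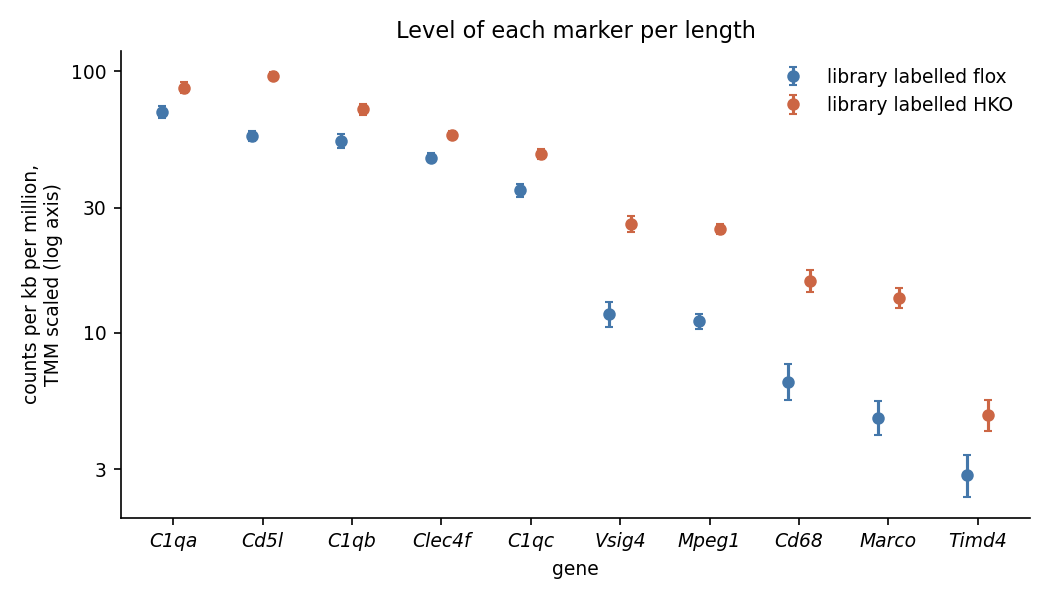
Level of each marker per length. The y axis is RPKM after TMM scaling, on a log axis, for the flox library (blue) and the HKO library (orange), and bars are exact 95% Poisson intervals. HKO points lie above flox points for all 10 genes, and the gap between colours is wide from Vsig4 to Marco and narrow for C1qa and Clec4f.

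Whether the markers differ from each other in their ratio was asked pair by pair. The ratio of 2 markers in the HKO library was divided by the same ratio in the flox library, which cancels any scaling of the libraries. Of 45 pairs, 34 had an exact 95% counting interval that excluded 1, and 25 still did with intervals widened for 45 comparisons by the Bonferroni rule. Marco and Clec4f were farthest apart, at 2.36 (1.97 to 2.84), which means that Marco gained that much relative to Clec4f. Next was Marco against C1qa at 2.33 (1.93 to 2.81). Cd5l and Timd4 were closest, at 1.00 (0.789 to 1.26), and with the few counts of Timd4 the interval is wide. Mpeg1 and Vsig4 were nearly as close, at 1.01 (0.871 to 1.18), as were C1qa and Clec4f, at 1.01 (0.927 to 1.11).

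Each pairing of Cd68 or Mpeg1 with a C1q gene excluded 1, in 6 of 6 pairs and also with the widened intervals. Of the 15 pairs of a receptor or Cd5l with a C1q gene, 12 excluded 1, and 9 did when widened. Clec4f was set apart within the receptors: against it, Vsig4 stood at 1.82 (1.58 to 2.10) and Cd5l at 1.40 (1.29 to 1.51). Inside the C1q complex, C1qc against C1qa gave 1.11 (1.01 to 1.23), which no longer excluded 1 when widened. C1qb against C1qa gave 1.07 (0.963 to 1.19) and C1qc against C1qb 1.04 (0.938 to 1.16). These intervals do not show that the C1q chains had equal ratios.

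**Figure D3:**
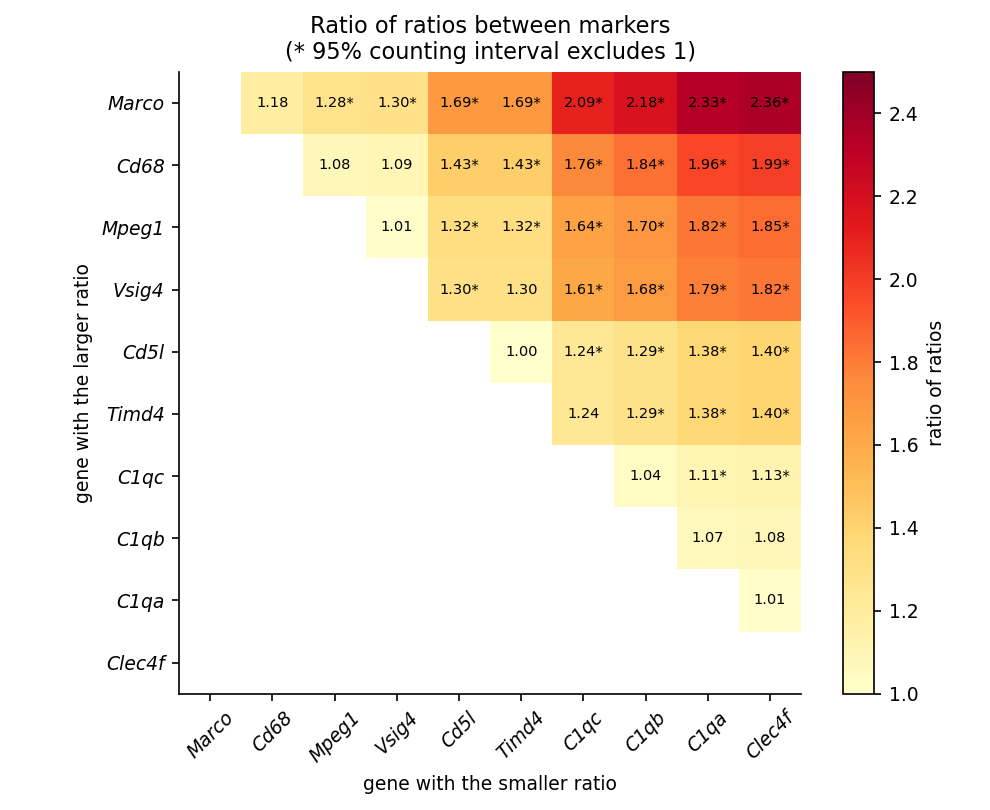
Ratio of ratios for the 45 pairs of markers. Rows are the gene with the larger and columns the gene with the smaller HKO over flox ratio, the number and colour are the ratio of the 2 ratios, and a star marks a 95% counting interval that excludes 1. Values run from 1.00 for Cd5l and Timd4 to 2.36 for Marco and Clec4f, and the darkest block joins Marco, Cd68, Mpeg1 and Vsig4 with Clec4f and the C1q genes.

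Among all genes the range spanned by the 10 markers was a common one. Of the 14433 tested genes, 3946, or 27.3%, had a log2 ratio between those of Clec4f and Marco, and 50.8% of tested genes had a ratio above equality. For 28.3% of tested genes the interval lay above equality, as it did for 10 of the 10 markers. With 2 libraries each gene has 1 ratio, so no gene was named for a likeness to the set.

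**Figure D4:**
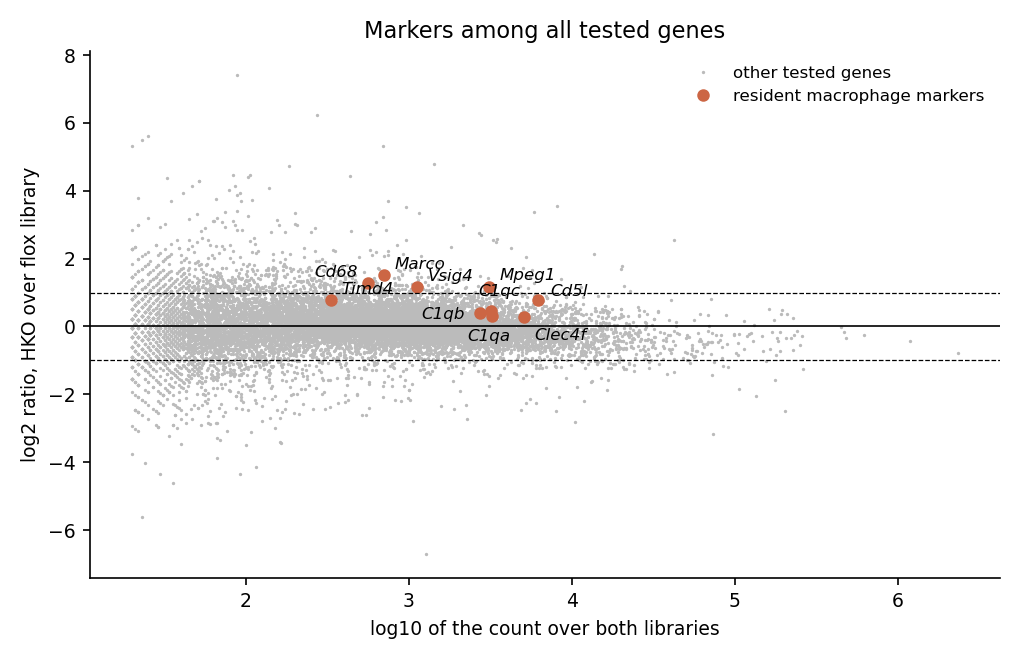
Markers among all tested genes. The x axis is the log10 of the count over both libraries and the y axis the log2 ratio of HKO to flox, grey dots are the tested genes, orange circles the 10 markers, and dashed lines 2-fold. The markers lie above the middle of the cloud, between 0.29 and 1.52, with many grey dots of similar depth at the same height.

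Other genes of Kupffer cells were mostly higher in the HKO library too. On the TMM scale none was past 2-fold, but 1 was with DESeq2 size factors and 5 with total counts. Of 12 such genes, 11 had a ratio above equality and 9 an interval above it, with a median log2 ratio of 0.55. Slc40a1, the iron exporter ferroportin through which Kupffer cells return iron from red cells, was at the edge of 2-fold with 2208 and 4526 counts, a ratio of 1.98 (1.88 to 2.09). Adgre1, which encodes the F4/80 antigen of macrophages, had 402 and 741 counts, 1.78-fold more (1.58 to 2.02) in HKO. Cd163, the haemoglobin scavenger receptor, had 331 and 403 counts and a smaller ratio of 1.18 (1.02 to 1.37), near that of Clec4f. Of the 12, C6 alone was on the other side, with 3845 and 3206 counts, 1.24-fold fewer (1.18 to 1.30). It is a complement component that hepatocytes make too. In whole liver the cells behind the counts of this list, Slc40a1 included, were not tested. Adgre1 and Cd163 were named after their values were seen.

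Transcription factors of Kupffer cells were split. Of 10, 1 was past 2-fold higher and 1 lower, and the median log2 ratio of 0.40 stood opposite to the log2 ratio of their summed counts, −0.61. Id3, which in mouse is needed for Kupffer cell development, had 586 and 1263 counts, 2.08-fold more (1.89 to 2.30) in HKO, and no gene of the list was past 2-fold higher with upper-quartile scaling. Spi1, which encodes PU.1, had 201 and 288 counts, a ratio of 1.38 (1.15 to 1.67), and was named after its value was seen, as were Nr1h3 and Csf1r. Nr1h3, which encodes the LXRα receptor of Kupffer cell identity and is also expressed by hepatocytes, had 2434 and 1985 counts, 1.27-fold fewer (1.19 to 1.35).

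The signals that maintain Kupffer cells differed between ligands. Of 10 niche genes, 1 was past 2-fold higher and 1 lower, with a median log2 ratio of 0.26. Csf1, the growth factor of macrophages, had 224 and 489 counts, 2.11-fold more (1.80 to 2.48) in HKO. Its receptor Csf1r, on the macrophages themselves, had 1014 and 1475 counts, a ratio of 1.41 (1.30 to 1.53). Dll1, a Notch ligand, had 125 and 43 counts, 2.98-fold fewer (2.11 to 4.36) in HKO. Dll4, another Notch ligand, had 80 and 96 counts, a ratio of 1.16 (0.854 to 1.58) whose interval held equality. Of the 10 niche genes, 5 had intervals above equality and 1, Dll1, below it. Dll4 was named after its value was seen.

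Genes shared by macrophages and other myeloid cells stood higher in the HKO library as well. Of 14, 13 were tested, and their median log2 ratio was 0.81. Intervals lay above equality for all 13, while 3 reached the 2-fold limit. That count depends on the scaling, with 8 for total counts and 1 for the upper quartile. Ptprc, the CD45 antigen of all leukocytes, had 164 and 354 counts, 2.08-fold more (1.73 to 2.53). Cybb, the catalytic subunit of the phagocyte oxidase, had 224 and 488 counts, 2.10-fold more (1.80 to 2.48), and Fcgr1, a high-affinity IgG receptor, 43 and 108, 2.41-fold more (1.69 to 3.54). Set against the summed counts of these 14 genes, the summed resident markers were 0.864 (0.823 to 0.907) as high in HKO as in flox. For every 1000 counts of the myeloid list there were 2940 of the resident markers in flox and 2541 in HKO.

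Several scarce markers of monocyte-derived and lipid-associated macrophages had large ratios. Of 10, 7 were past 2-fold higher and 1 lower, with a median log2 ratio of 2.04, and none was at 0 in either library. Gpnmb, a glycoprotein of lipid-laden macrophages, had 6 and 69 counts, 10.3-fold more (4.86 to 31.4). Mmp12, the macrophage elastase, had 17 and 183 counts, 10.1-fold more (6.33 to 18.3), and Ccr2, the receptor by which monocytes follow Ccl2, 17 and 59, 3.29-fold more (1.93 to 6.14). The lower one was Fabp5, a fatty acid binding protein also made by other cells, with 603 and 184 counts, 3.38-fold fewer (2.87 to 4.02). These calls rest mostly on genes with few counts: at a floor of 100 counts the median was 0.69 and 1 gene was past 2-fold higher. Summed, the list was 1.27-fold higher (1.19 to 1.37), against 1.54-fold for the resident markers. Fabp5 weighs heavily in that sum, with 603 of its 1415 counts in flox and 184 of 1864 in HKO. The sum therefore does not show whether the other genes of the list rose less than the resident markers. In CPM the list had 65.9 and 101, against 473 and 879 for the 10 resident markers. Part of the counts of Cd68, Mpeg1 and C1q can come from such cells, and their part in the ratios of the resident markers was not tested.

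**Figure D5:**
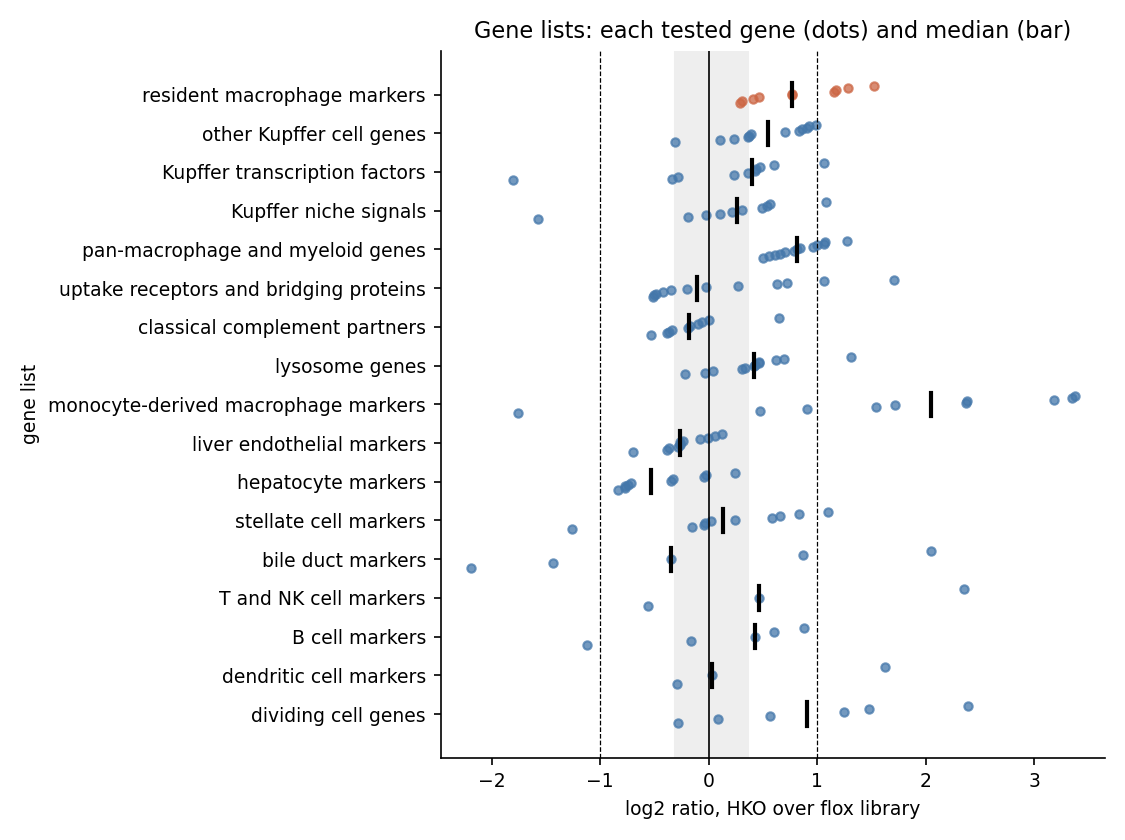
Gene lists compared between the libraries. Each dot is a tested gene at its log2 ratio of HKO to flox, black bars are list medians, the grey band the quartiles of all tested genes and dashed lines 2-fold in either direction, for lists with at least 3 tested genes. Medians lie at 0.77 for the resident markers (orange), 0.81 for myeloid genes, 2.04 for monocyte-derived macrophage markers and −0.53 for hepatocyte markers.

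The partners of C1q in complement went the other way on the TMM scale. Of 10 classical pathway genes, mostly made by hepatocytes, none was past 2-fold in either direction and 8 had intervals below equality, and their median log2 ratio of −0.18 becomes 0.086 with total counts. C3, the central component of complement, had 263736 and 214978 counts, 1.27-fold fewer (1.26 to 1.28), and C4b, which C1 cleaves, 37267 and 26675, 1.44-fold fewer (1.42 to 1.47). The proteases C1ra and C1s1, which join C1q in the C1 complex, had 12021 counts together in flox and 11684 in HKO. The 3 C1q genes had 0.324 counts for each count of these proteases in flox and 0.452 in HKO, a ratio of ratios of 1.39 (1.33 to 1.46) that needs no scaling. This comparison was chosen after the values were seen.

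Receptors and bridging proteins for uptake of dying cells and lipoproteins were mixed. Of 12, 2 passed the 2-fold limit, both upwards, and 1 did with upper-quartile scaling. On the TMM scale 5 of the 12 intervals lay above equality and 6 below it. The median log2 ratio of −0.11 becomes 0.15 with total counts. Cd36, a scavenger receptor for fatty acids and oxidised lipoproteins found on macrophages and other cells, had 341 and 1152 counts, 3.26-fold more (2.89 to 3.70). The study reported more nascent Cd36 RNA in hepatocytes isolated from HKO mice. Which cells gave the Cd36 counts of these whole-liver libraries was not tested. Mfge8, which bridges apoptotic cells to phagocytes, had 405 and 876 counts, 2.09-fold more (1.86 to 2.36). Lysosomal genes, the company of Cd68, were mostly a little higher, with 1 of 12 past 2-fold, none lower, and a median log2 ratio of 0.42.

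Set against genes of other liver cells, the markers could be compared without a scaling factor. Among 12 endothelial markers none was past 2-fold. On the TMM scale none had an interval above equality and 8 had one below it. Their median log2 ratio of −0.26 becomes 0.0051 with total counts. Kdr and Ptprb, receptors of endothelial cells, had 1417 and 1241, and 1805 and 1548 counts. For every 1000 counts of the endothelial list there were 1047 of the resident markers in flox and 1915 in HKO, a ratio of ratios of 1.83 (1.76 to 1.90). The 10 hepatocyte markers, of the cells to which the deletion is directed, had a median log2 ratio of −0.53 with none past 2-fold. Of their intervals 8 lay below equality and 1 above, so lower counts of this list also enter the comparison. Against this list the ratio of ratios was 2.30 (2.25 to 2.36). Albumin, with 1460053 and 886277 counts, weighs heavily in that value, which was 1.88 (1.84 to 1.93) without it. Apoa1, an apolipoprotein, had 221494 and 224315 counts. Hepatocyte markers held more counts than the list of any other cell type in both libraries.

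Transcripts of the lymphocyte, neutrophil and dendritic cell lists were scarce in both libraries. Summed, each of these lists had between 2.28 and 11.4 CPM in flox and between 4.07 and 13.7 CPM in HKO. That was well under the 473 and 879 CPM of the resident markers, but such sums do not measure numbers of cells. The neutrophil genes Ly6g and Mpo had 0 counts in both libraries, which allows up to 0.140 CPM in flox and 0.163 in HKO, and only Csf3r of that list was tested, with 39 and 67 counts. Of 8 T and NK cell genes 3 were tested, and Gzma, a granule protease, was past 2-fold higher with 3 and 18 counts, a ratio of 5.80 (1.69 to 30.8). Of 6 B cell genes 5 were tested, and Ighd, of mature B cells, was past 2-fold lower with 28 and 13 counts, 2.18-fold fewer (1.12 to 4.68), a call that is lost with total counts. Siglech, of plasmacytoid dendritic cells, had 5 and 17 counts, 3.08-fold more (1.16 to 11.4), and was 1 of the 3 dendritic cell genes tested. The median log2 ratio of these 3 was 0.03, which turns to −0.04 with upper-quartile scaling, and the summed list had 245 and 253 counts.

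The lists of dividing cells, stellate cells and bile duct cells held differences of their own. Of 8 genes of cell division 6 were tested and 3 were past 2-fold higher, none lower. No other interval of the 6 excluded equality, and the summed list was 1.31-fold higher (1.19 to 1.45). Pcna, with most of the counts of the list, had 560 and 615, a ratio of 1.06 (0.946 to 1.19). It was named after its value was seen. Top2a had 9 and 51 counts, 5.24-fold more (2.67 to 12.7), Mki67 16 and 47, 2.78-fold more (1.58 to 5.37), and Mcm2 75 and 185, 2.38-fold more (1.82 to 3.16). Whether Kupffer cells were among the dividing cells was not tested. Of 10 stellate cell genes, Lrat, which stores vitamin A, was past 2-fold higher (296 and 654 counts) and Des, a muscle-type filament, past 2-fold lower (375 and 162), though not with total counts. Of 6 bile duct genes 5 were tested, and Sox9 was past 2-fold higher (94 and 404) while the keratins Krt19 (731 and 165) and Krt7 (100 and 38) were past 2-fold lower.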

How the data were processed

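Total RNA from pooled livers was made into paired-end libraries with a NEBNext kit. The deposited values are raw read counts per gene, which the authors made by alignment to GRCm38. The submitters' processing notes name TopHat2 and HTSeq 0.6.1, while the methods of the study name another aligner and HTSeq release, so the tools behind the files are uncertain. Whether reads were counted by strand is not given in the sources used here. Of 52947 lines, 311 had no gene annotation and were left out (0.328% of flox and 0.261% of HKO counts). Symbols from GENCODE M21 matched 52403 of 52636 identifiers, and exon lengths came from the same release.

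Scaling factors came from edgeR 4.0.16 (TMM, upper quartile) and DESeq2 1.42.0 in R 4.3.3, and neither tool was used for a test. A prior of 0.5 counts was added for log2 and fold values, except that the plain ratio is given where a library had 1 to 3 counts. One count equals 0.0466 CPM in flox and 0.0542 in HKO. Ratios of ratios are conditional odds ratios with exact intervals (SciPy 1.17.1, Python 3.11.15). The steps were tested on simulated data. The markers, the 17 other lists and the tests were chosen with earlier results of these data known. Named genes are the 10 markers, Mettl3, and from each list up to 4 genes past 2-fold with most counts, or the 2 with most counts where none was past. Genes that this rule names but the text does not are not reported here.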

Additional observations from a re-analysis of the deposited data

How the results depend on the processing

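The 10 marker ratios kept their direction under each scaling, count floor and prior tried. With total counts, 6 markers were past 2-fold higher, Timd4 and Cd5l joining the other 4, where 10.4% of all tested genes were past 2-fold higher and 2.83% lower. With total counts the marker median was 1.03 and the log2 ratio of the sum 0.89, and with upper-quartile scaling the latter was 0.55. At a log2 limit of 1.5 only 1 marker, Marco, was past, against 2.21% of tested genes, and at a limit of 1.5-fold 6 were, against 13.0%. The study joined that log2 limit to a limit on p-values, in place of which the counting interval was used here. Without the 3 C1q genes the median was 1.15 and the sum 0.76, without Cd68 and Mpeg1 the sum was 0.54, and without Clec4f and Cd5l, chosen after seeing the data, it was 0.69. Without Alb, the ratio of the summed markers to hepatocyte markers was 1.88. List medians changed sign with total counts for uptake genes (0.15), complement partners (0.086) and endothelial markers (0.0051), and for dendritic cell markers under upper-quartile scaling (−0.044) and at a floor of 100 counts (−0.13). At that floor no T and NK, B or dendritic cell gene was past 2-fold in the direction called at 20 counts, and 1 dividing cell gene was. With total counts 2 stellate and 2 bile duct genes and 1 B cell gene were past 2-fold higher. Depth limits Timd4 most among the markers. No paired analysis was possible because each group has 1 library.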
